A study of Homo sapiens with 22 samples.

Results

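The 6 gene models described here, AGAP3, ARFIP2, DNM1, EPS15L1, HOMER3andCOPE and M6PR, carry names of genes that act in endocytosis, Arf signalling, coat formation and lysosomal sorting. They hold 29 exonic bins of the 2635 bins, and 6 of the 636 gene models, in a deposited exon usage table limited to genes that carry m6A (N6-methyladenosine) sites. The models were chosen by gene name from this table with its exon usage values already known, so the values are given as a description and no test of them is given. All 29 bins were used, with no filter on low values.

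The libraries came from HEK293T, a human embryonic kidney cell line. RNA-seq covered 12 of 22 libraries, in 6 groups of 2: wild-type controls of the HNRNPG series, HNRNPG knockdowns KD1 and KD2, wild-type controls of the METTL series, METTL3 knockdown and METTL14 knockdown. The other 10 libraries, all labelled PAR-CLIP, some with HNRNPG and some with meRIP input or IP, were not analysed here. The labels name neither the knockdown reagents nor what sets KD1 apart from KD2. They also leave unsaid if replicates were grown separately. Each bin has 1 deposited value per knockdown, so no value has a replicate error and the read depth behind it is unknown. KD1 and KD2 share their controls, as do METTL3 and METTL14, and the levels of the targeted genes were not analysed here.

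Vesicle traffic moves membrane proteins between the cell surface, endosomes, the Golgi apparatus and lysosomes. Clathrin adaptors gather cargo at the surface and dynamin cuts the coated pit free. Small GTPases of the Arf family recruit coats at the Golgi, and GTPase-activating proteins switch them off. The mannose 6-phosphate receptors carry newly made hydrolases from the Golgi towards lysosomes. HNRNPG, encoded by RBMX, binds RNA in the nucleus and acts in splicing, while METTL3 and METTL14 together methylate mRNA to m6A. The study asked whether m6A and HNRNPG act together on alternative splicing.

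Values are changes in exon usage, log2 of knockdown over control, and lie below 0 where the knockdown used the bin less. They are always listed for KD1, KD2, METTL3 and METTL14, in this sequence. A bin is an exon or a piece of one between neighbouring exon boundaries, and its usage is measured against the rest of its gene model, which makes the bins of a model depend on each other. Coordinates are hg19, and whether a bin is coding, untranslated or intronic in other annotations was not analysed here. No sequence is printed, because none of the sources used here holds the bases of these bins.

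Changes of 1 or more were found in 4 of the 6 models, ARFIP2, DNM1, HOMER3andCOPE and M6PR, and all were on the lower side. Column by column these were 1, 3, 2 and 3 of the 6 models, against 42, 74, 92 and 45 of all 636. Models with such a change in any of the 4 columns were not counted over all 636, so nothing is read from this count. DNM1 and M6PR were below 0 in every listed bin and every knockdown, and so was the single bin of ARFIP2. The bins of HOMER3andCOPE were below 0 in KD2 and METTL14. EPS15L1 held the bin with the highest value, and AGAP3 was divided into 5′ bins on one side of 0 and 3′ bins on the other.

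**Figure D1:**
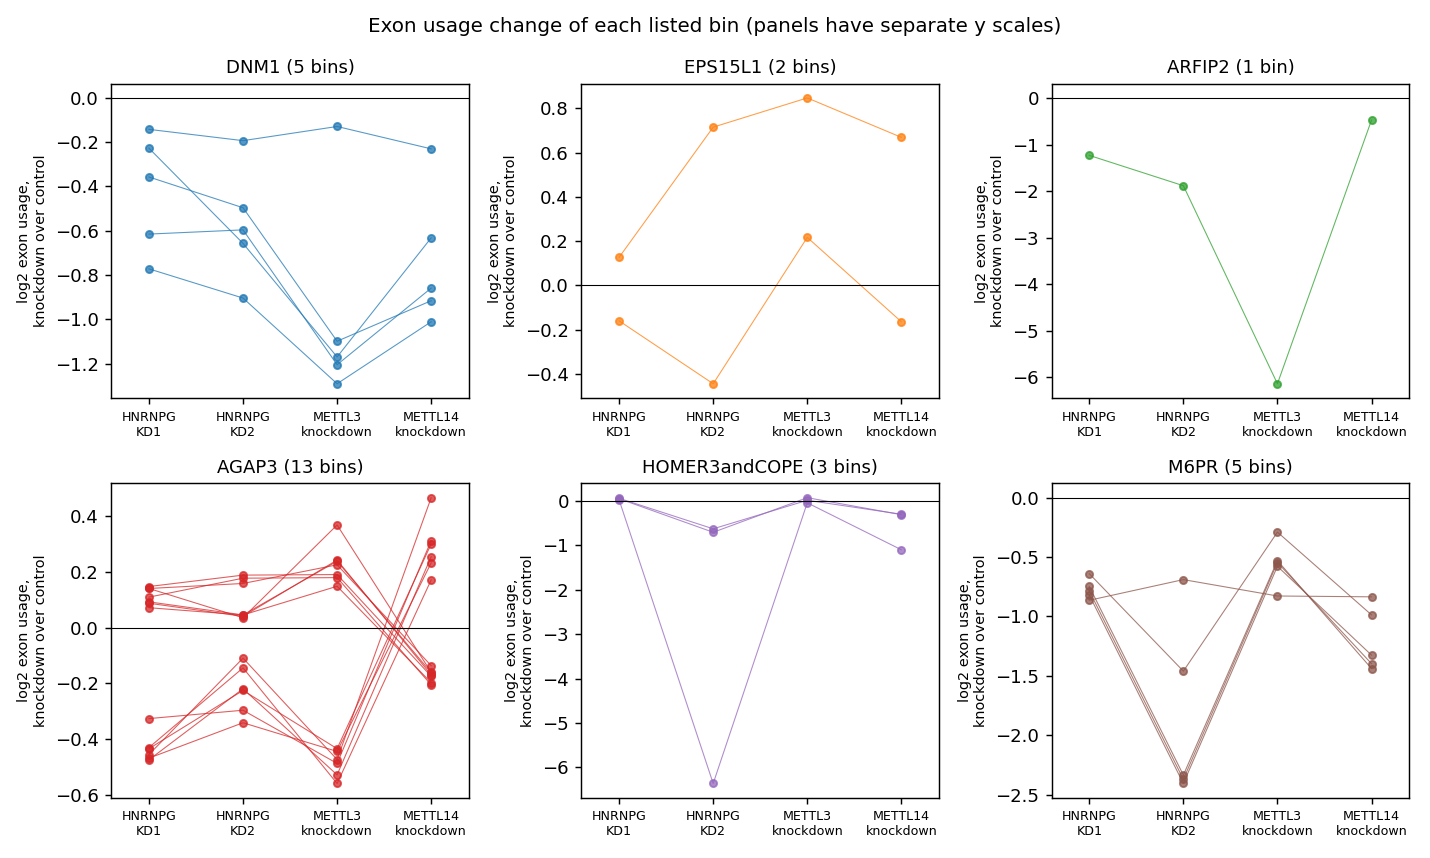
Exon usage change (log2, y axis, a separate scale per panel) of each listed bin in the 4 knockdowns (x axis); each point is the authors' value for 1 bin and thin lines join the same bin. The 5 bins of DNM1 and the 5 of M6PR lie below 0 throughout, and the 13 bins of AGAP3 form 2 sets that change sides between METTL3 and METTL14.

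Endocytosis was represented by DNM1 and EPS15L1. DNM1, the dynamin best known from nerve terminals, where it severs endocytic vesicles, had 5 listed bins on the plus strand of chromosome 9, from 130987231 to 131017400. Exon bin 46 (131014620 to 131015379, 760 bp) had the largest changes, with -0.77 (KD1), -0.90 (KD2), -1.29 (METTL3) and -1.01 (METTL14) by the authors' deposited table. This bin was the only one of the gene at 1 or beyond in METTL14 knockdown. In the authors' deposited table exon bin 19 (130994404 to 130995420) had -0.61 (KD1), -0.60 (KD2), -1.21 (METTL3) and -0.86 (METTL14). It was, with exon bin 46, one of a pair of DNM1 bins past 0.5 in all 4 columns.

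The authors' deposited table gave exon bin 15 (130987231 to 130988313) values of -0.36, -0.50, -1.10 and -0.92 in KD1, KD2, METTL3 and METTL14. Exon bin 20 (130995615 to 130996142) had -0.23, -0.66, -1.17 and -0.63 over the same knockdowns by the authors' deposited table. Like exon bins 19 and 46, both bins were thus lower by more in METTL3 knockdown than in either HNRNPG knockdown. These differences have no error. Exon bin 54, the 3′-most listed bin, stayed near 0 by comparison, with -0.14, -0.19, -0.13 and -0.23 across the columns of the authors' deposited table. The median over the 5 bins was -0.36 (KD1), -0.60 (KD2), -1.17 (METTL3) and -0.86 (METTL14). The single listed m6A site of the gene lay 5′ of all 5 bins, at distances from 1276 to 30978 bp. The bins were 468 to 1083 bp long, against a median of 157 bp over the whole table.

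EPS15L1, a relative of the clathrin adaptor EPS15, had 2 listed bins on the minus strand of chromosome 19. Exon bin 18 (16511442 to 16513125, 1684 bp) stood above 0 in every column of the authors' deposited table, with 0.13 (KD1), 0.71 (KD2), 0.85 (METTL3) and 0.67 (METTL14). It was the only bin of the 6 models higher by at least 0.5 in any knockdown. Exon bin 10 (16487933 to 16488065) had -0.16, -0.44, 0.22 and -0.16 over the same knockdowns by the authors' deposited table. This bin was therefore below 0 in 3 of the columns and above 0 in METTL3 knockdown. The nearest of the 4 listed m6A sites lay 2283 bp 3′ of exon bin 18 and 5940 bp 5′ of exon bin 10.

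Arf signalling was represented by ARFIP2 and AGAP3. ARFIP2 (arfaptin 2) is a curved membrane-binding protein that attaches to Arf and Arf-like GTPases at the Golgi, and 1 of its bins was listed. This was exon bin 20 on the minus strand of chromosome 11 (6499809 to 6499882, 74 bp), with a listed m6A site 621 bp 5′ of it. In the authors' deposited table it had -1.23 (KD1), -1.88 (KD2), -6.13 (METTL3) and -0.48 (METTL14). The METTL3 value ranked 5 from the lowest among all 2635 bins, and the METTL14 value ranked 307. The METTL knockdowns, set against the same controls, thus differed widely for this bin, and the read counts that would show how many fragments it rests on were not used here.

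AGAP3, a GTPase-activating protein for Arf proteins, had 13 listed bins on the plus strand of chromosome 7, the most of the 6 models. Going 5′ to 3′, the values turned from one side of 0 to the other at a single place in every column, between exon bin 42 and exon bin 48, which are 203 bp apart. The 6 listed bins on the 5′ side (exon bins 35 to 42, 150817655 to 150820706) had medians of -0.44 (KD1), -0.22 (KD2), -0.48 (METTL3) and 0.28 (METTL14). The 7 listed bins on the 3′ side (exon bins 48 to 70, 150820910 to 150841520) had medians of 0.11, 0.046, 0.23 and -0.17. The sides were thus reversed in METTL14 knockdown against the other columns.

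Within each side the AGAP3 bins lay close together. On the 5′ side they ranged from -0.47 to -0.33 in KD1, from -0.34 to -0.11 in KD2, from -0.56 to -0.43 in METTL3 and from 0.17 to 0.47 in METTL14 by the authors' deposited table. On the 3′ side the ranges in the authors' deposited table were 0.072 to 0.15 for KD1, 0.036 to 0.19 for KD2, 0.15 to 0.37 for METTL3 and -0.20 to -0.14 for METTL14. The sides were divided at the turn, where every column crosses 0, so their ranges could not overlap. The 3′ median minus the 5′ median, whose sign also follows from that division, was 0.55 (KD1), 0.27 (KD2), 0.71 (METTL3) and -0.45 (METTL14).

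**Figure D2:**
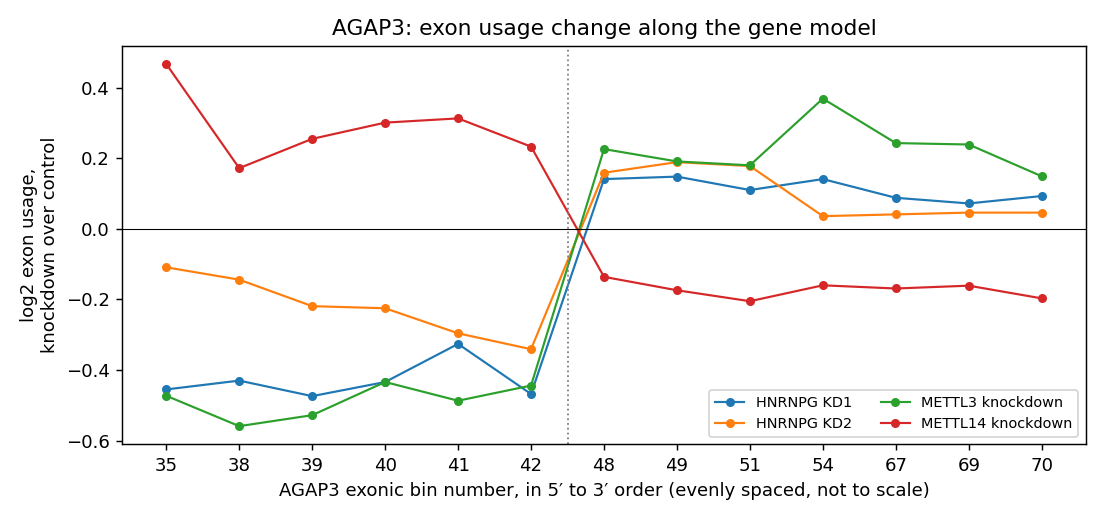
Exon usage change (log2, y axis) of the 13 listed AGAP3 bins in 5′ to 3′ order (x axis, bin numbers, evenly spaced) in the 4 knockdowns; each point is the authors' value for 1 bin, and the dotted line marks the turn between exon bins 42 and 48. Values go from below to above 0 in KD1, KD2 and METTL3 and from above to below 0 in METTL14.

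Few AGAP3 bins reached a change of 0.5. In the authors' deposited table exon bin 38 (150819812 to 150819880) had -0.43 (KD1), -0.14 (KD2), -0.56 (METTL3) and 0.17 (METTL14). In METTL3 knockdown it was, with exon bin 39 at -0.53 in the authors' deposited table, one of a pair of AGAP3 bins past 0.5. Exon bin 70 (150840824 to 150841520, 697 bp), the 3′-most listed bin, was the only bin of the 6 models that held a listed m6A site, at position 150841142. It had 0.093, 0.046, 0.15 and -0.20 across the columns of the authors' deposited table, on the side of its 3′ neighbours. The nearest listed site to exon bin 35 lay 12776 bp 5′ of it, and listed sites that are not nearest to any bin were not placed here.

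A single turn was common among models with many bins. Of the 62 models with at least 10 listed bins, 27 (KD1), 34 (KD2), 24 (METTL3) and 27 (METTL14) turned once. AGAP3 was one of 8 that turned once in every column, and among the 28 single-gene models of that size one of 4. AGAP3 had all 13 bins on opposite sides in KD1 and METTL14 and in KD2 and METTL14. It was the only one of the 62 models to do so for both pairs, and for KD1 and METTL14 alone 2 models did. Within a pair the controls are separate. Both pairs hold METTL14, however, and KD1 and KD2 share controls, so the pairs are not independent of each other. All 13 bins were on the same side in KD1 and METTL3 and in KD2 and METTL3, as in 11 of the 62 models. Bins of one model constrain each other and many adjoin, so these counts describe the models and are not counts of separate events.

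The coat group held one model, HOMER3andCOPE, which joins genes under one name and is in this group by that name alone. COPE is the epsilon subunit of coatomer, the coat of vesicles that return from the Golgi to the endoplasmic reticulum, and HOMER3 is a scaffold protein of synapses. The 3 listed bins lay on the minus strand of chromosome 19, between 19042785 and 19049693, and the single listed m6A site lay 25867 to 32619 bp 3′ of them. These distances exceed the length that RefSeq (GRCh38.p14) gives COPE, 19874 bp, and that of HOMER3, 12017 bp. By those lengths the site and the bins are not in the same one of the genes. COPE comes before HOMER3 along the chromosome in RefSeq, as the site comes before the bins. By that order the site falls to COPE and the bins to HOMER3, although the deposited names do not assign them. The bins are therefore given under the joined name and are not read as bins of the coatomer gene.

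Exon bin 70 of the joined model (19042785 to 19042833, 49 bp) had 0.021 (KD1), -6.36 (KD2), -0.044 (METTL3) and -1.10 (METTL14) by the authors' deposited table. Its KD2 value ranked 6 from the lowest of all bins and its METTL14 value 35, while KD1 and METTL3 were near 0. The authors' deposited table gave exon bin 77 values of 0.058, -0.63, 0.013 and -0.30. Exon bin 79 had 0.049, -0.71, 0.072 and -0.31 across the columns of the authors' deposited table. All 3 bins were thus below 0 in KD2 and METTL14 and between -0.044 and 0.072 in KD1 and METTL3, and the columns that share controls differed.

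Lysosomal sorting was represented by M6PR, the cation-dependent mannose 6-phosphate receptor, on the minus strand of chromosome 12. Its 5 listed bins formed 2 stretches. They span 9759 bp, more than the 9285 bp that RefSeq (GRCh38.p14) gives the gene, so part of the span lies outside those bounds. Exon bins 1 to 4 adjoin at the 3′ end (9092144 to 9092964), and exon bin 33 (9100028 to 9101902, 1875 bp) lies towards the 5′ end. Exon bin 1 was 813 bp long, while exon bins 2, 3 and 4 were 2, 2 and 4 bp long and can share nearly all their reads.

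In the authors' deposited table M6PR exon bin 1 had -0.64 (KD1), -1.46 (KD2), -0.29 (METTL3) and -0.99 (METTL14). Exon bin 4, with the largest change, had -0.82, -2.41, -0.58 and -1.33 over the same knockdowns by the authors' deposited table. Exon bins 2 and 3 lay beside it, at -2.34 and -2.37 in KD2 and -1.44 and -1.40 in METTL14 by the authors' deposited table. The KD2 values of exon bins 4, 3 and 2 ranked 8, 10 and 11 from the lowest of all bins. This 3′ stretch was thus lowest in KD2, followed by METTL14.

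M6PR exon bin 33 showed another order of the knockdowns. It had -0.86 (KD1), -0.69 (KD2), -0.83 (METTL3) and -0.84 (METTL14) by the authors' deposited table, close to each other in all 4 columns. The single listed m6A site lay between the stretches, 1054 bp 3′ of exon bin 33 and 6010 to 6018 bp 5′ of exon bins 1 to 4. Over the M6PR bins KD1 and KD2 lay apart by a median of 1.59, against 0.19 over all bins of the table, and rests on the adjoining exon bins 2, 3 and 4 of 2 to 4 bp.

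**Figure D3:**
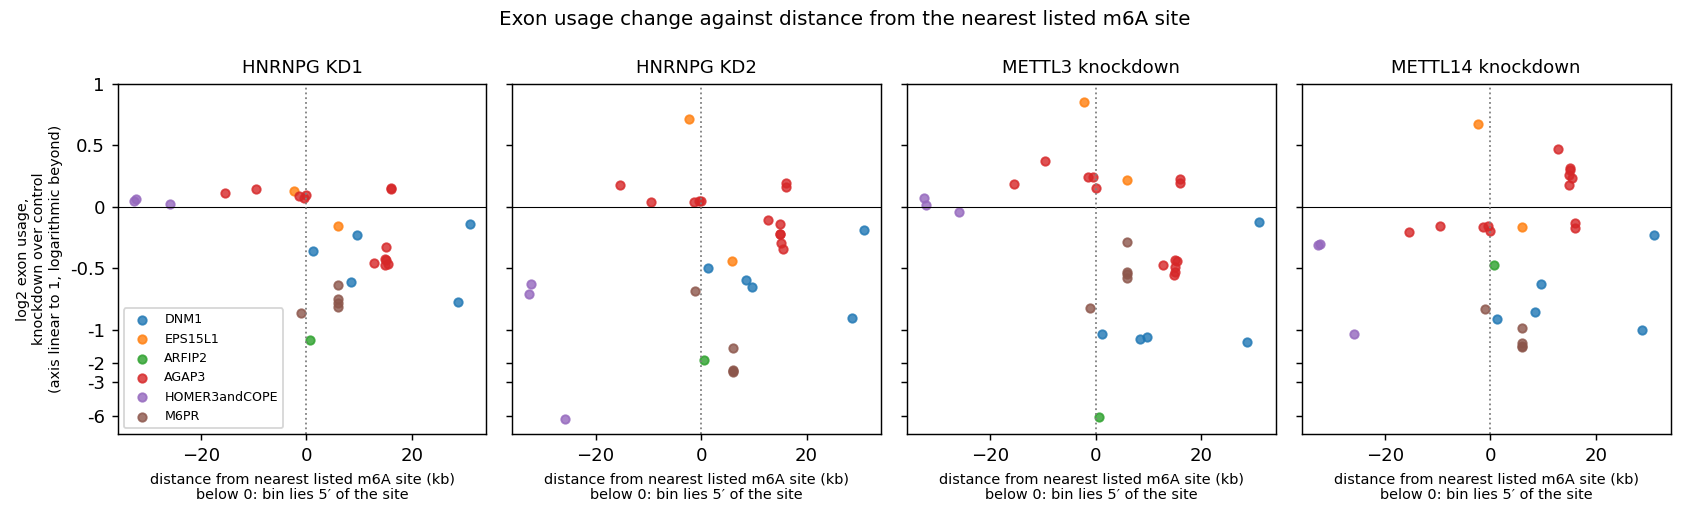
Exon usage change (log2, y axis, linear to 1 and logarithmic beyond) of the 29 bins against the distance from the nearest listed m6A site of their model (kb, x axis, below 0 where the bin lies 5′ of the site), one panel per knockdown and one colour per model. Bins lie from 0 to 32619 bp from a site, and those of one model share its sites. The distances of HOMER3andCOPE, 25867 to 32619 bp, run to a site that falls to COPE by gene order, while the bins fall to HOMER3.

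In length and in distance to the listed sites the bins of the 6 models were close to the bins of the whole table. Their median length was 157 bp, the same as over all bins, and 27.6% were 500 bp or longer against 27.8% of all bins. The median distance to the nearest listed site was 9660 bp against 8545 bp, and 20.7% lay within 2000 bp of one against 26.2% of all bins. These values include the HOMER3andCOPE bins, whose listed site falls to COPE by gene order. A site lay inside 3.45% of them against 3.64%. The nearest site was 5′ of 19 of the 29 bins and 3′ of 9, against 1455 and 1084 of all 2635 bins.

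Counted together, the bins of the 6 models were more often lower than the bins of the whole table. The number lower by at least 0.5 was 8 of 29 for KD1 (27.6%, against 9.03% of all bins), 12 in KD2 (41.4% against 13.9%), 11 in METTL3 (37.9% against 14.8%) and 10 in METTL14 (34.5% against 10.6%). DNM1, M6PR and ARFIP2 held all 8 of the KD1 bins. HOMER3andCOPE, whose bins fall to HOMER3 by gene order, held 3 of the 12 in KD2 and 1 of the 10 in METTL14. The number higher by at least 0.5 was 0 in KD1 against 6.0% of all bins, and 1, EPS15L1 exon bin 18, in each of KD2, METTL3 and METTL14 against 7.78%, 7.63% and 5.46%. The models were chosen with these values known, so nothing is read from the excess.

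Other sizes were counted as well. At a change of at least 1 in either direction there was 1 bin for KD1 (3.45%), 6 for KD2 (20.7%) and 5 for each METTL knockdown (17.2%). The shares of all bins were 2.31%, 3.95%, 5.73% and 2.58%, so KD1 was near the share of all bins. At 0.25 there were 15, 17, 18 and 18 bins (51.7%, 58.6%, 62.1% and 62.1%). The shares of all bins were then 40.2%, 50.8%, 52.5% and 40.0%, nearest in KD2 and next in METTL3. Adjoining bins can share reads, and with each run of them counted once by its longest bin (a way of counting added with the values in view), the 29 bins became 21 runs. Of these 5 were lower by at least 0.5 (KD1), 9 (KD2), 6 (METTL3) and 7 (METTL14), against 8.67%, 13.2%, 14.1% and 10.4% of all runs. The median over the 29 bins was -0.33 (KD1), -0.34 (KD2), -0.43 (METTL3) and -0.20 (METTL14), against -0.037, -0.064, -0.039 and -0.043 over all bins. The medians leaned on single models. Without M6PR they came to -0.15 in KD1, -0.22 in KD2 and -0.086 in METTL3, and without DNM1 to -0.17 in METTL3. Without AGAP3 they were further from 0, at -0.70 in KD2 and -0.85 in METTL14. With runs in place of bins the KD1 and METTL3 medians were -0.14 and -0.044. The 8 adjoining pairs of bins within the 6 models had median absolute differences of 0.042, 0.041, 0.039 and 0.059 across the columns, against 0.048, 0.051, 0.049 and 0.044 over all 778 adjoining pairs of the table.

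HNRNPG and METTL knockdowns were set against separate controls, so the sides of their values can be placed next to each other. Of the 29 bins, 27 were on the same side of 0 in KD1 and METTL3 (93.1% against 65.2% of all bins) and 26 in KD2 and METTL3 (89.7% against 66.7%). For METTL14 the numbers were 13 with KD1 (44.8% against 61.4%) and 16 with KD2 (55.2% against 69.9%). All 13 AGAP3 bins were on opposite sides in these last pairs. Among the 16 bins outside AGAP3, 13 were on the same side in KD1 and METTL14 and all 16 in KD2 and METTL14. For METTL3, 14 of those 16 were on the same side with KD1 and 13 with KD2. The models were chosen with these values known, and bins of one model depend on each other, so nothing is read from these shares.

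The bins most like the leading bin of each model were sought in other single-gene models by Euclidean distance over the 4 values. For ARFIP2 exon bin 20 these were NXN exon bin 9, at a distance of 1.07, and BRP44L exon bin 19, at 2.78, which had METTL3 values of -6.76 and -8.62 in the authors' deposited table. The pair nearest to HOMER3andCOPE exon bin 70 was ODF2L exon bin 11, at 1.48, and CTNNB1 exon bin 15, at 2.30, with KD2 values of -7.16 and -7.52 in the authors' deposited table. Nearest to DNM1 exon bin 46 were TCOF1 exon bin 17, at 0.36, and SIM2 exon bin 20, at 0.42. The bins nearest to M6PR exon bin 4 were PSMB7 exon bin 5, at 0.93, and BCAT2 exon bin 43, at 1.17. EPS15L1 exon bin 18 was closest to LOC643749 exon bin 15, at 0.21, and HMGN2 exon bin 6, at 0.25, and AGAP3 exon bin 38 to SNRNP70 exon bin 31, at 0.23, and SF1 exon bin 49, at 0.24. With 4 values per bin, in pairs that share controls, likeness is a description of size and sign.

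A list of 300 symbols of vesicle traffic genes found 21 other models with 84 bins in the table. Lower by at least 0.5 were 3 of these bins for KD1, 32 for KD2 and 7 for each METTL knockdown, and higher were 2, 4, 4 and 6. As shares, 3.57%, 38.1%, 8.33% and 8.33% were lower, so the share was above that of all bins in KD2 and below it in the other columns. Higher were 2.38%, 4.76%, 4.76% and 7.14%, against 6.0%, 7.78%, 7.63% and 5.46% of all bins, so only METTL14 was above. The 32 bins of KD2 came from 11 models. SAR1AandTYSND1andAIFM2 held 12 of its 18 bins there, and SEC31A, of the outer COPII coat, held 6 of its 16. The former joins SAR1A, the GTPase of COPII coats, with other genes, and the table does not say which of them holds the bins.

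**Figure D4:**
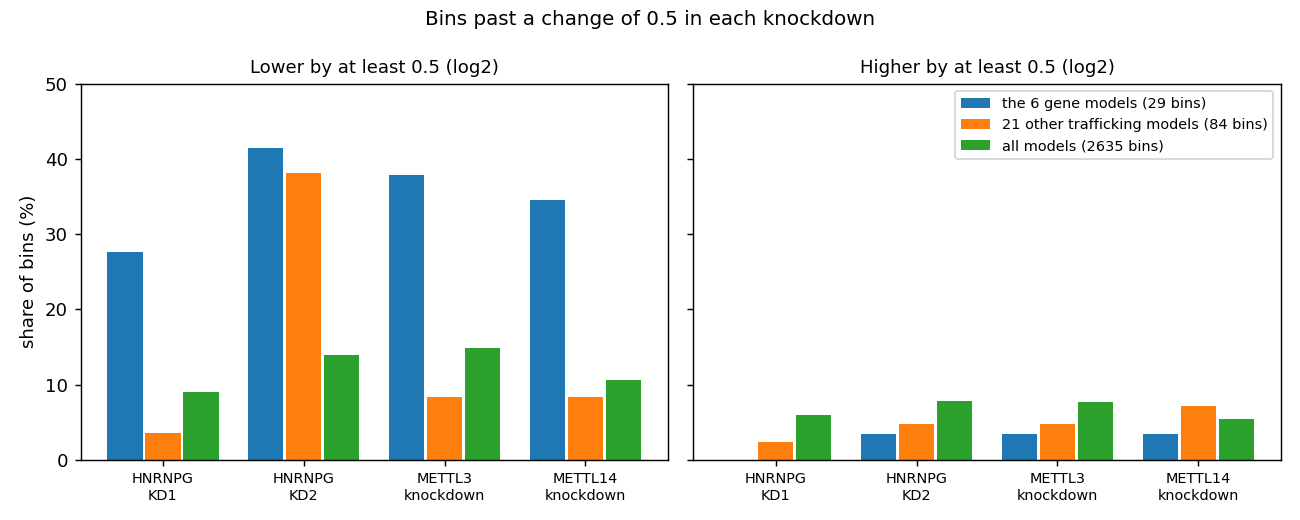
Share of bins (%, y axis, from 0) lower (left) or higher (right) by at least 0.5 (log2) in the 4 knockdowns (x axis), for the 29 bins of the 6 gene models, the 84 bins of the 21 other trafficking models and all 2635 bins. The bins of the 6 models are lower in 27.6 to 41.4% of cases, and the other trafficking models reach 38.1% in KD2 and stay at or below 8.33% elsewhere.

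Each of these models was then taken by the bin whose mean of the 4 values was farthest from 0, which need not be the bin with the largest change in a single knockdown. The lowest of these means belonged to GGA1, SEC31A and the joined SAR1A model. GGA1 is an Arf-dependent adaptor that recognises the tails of mannose 6-phosphate receptors. Its exon bin 17 (chromosome 22, 38005073 to 38005161) had -0.56 (KD1), -1.98 (KD2), 0.86 (METTL3) and -0.74 (METTL14) by the authors' deposited table. All 4 listed GGA1 bins were lower by at least 0.5 in KD2 and in METTL14. In KD1 and METTL3 only exon bin 17 was past 0.5, and the medians over the 4 bins were 0.066 and -0.013. SEC31A exon bin 124 (chromosome 4, 83820976 to 83821229) had -0.17, -1.36, -0.80 and 0.089 across the columns of the authors' deposited table. SAR1AandTYSND1andAIFM2 exon bin 49 (chromosome 10, 71903729 to 71904240) had -0.23, -0.99, -0.039 and -0.84 over the same knockdowns by the authors' deposited table, while another bin of this model reached -1.27 in KD2.

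The highest means belonged to SEC22B, NAPA and VPS36andTHSD1. SEC22B is a SNARE of traffic between the endoplasmic reticulum and the Golgi, and NAPA (alpha-SNAP) helps take SNARE complexes apart. In the authors' deposited table SEC22B exon bin 10 (chromosome 1, 145100692 to 145100984) had 0.30 (KD1), 0.97 (KD2), 0.43 (METTL3) and 1.19 (METTL14). NAPA exon bin 46 (chromosome 19, 47996755 to 47996871) had 0.38, 0.86, 0.35 and 0.56 across the columns of the authors' deposited table. Both were above 0 in every column. VPS36 belongs to an ESCRT complex that sorts ubiquitinated cargo, but its model is joined with THSD1 and the table does not say which gene holds the bins. Exon bin 9 of this model had 0.51, 0.23, -0.038 and 0.60 over the same knockdowns by the authors' deposited table.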

How the data were processed

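The single file used is a table that the authors computed and deposited, with log2 of control against knockdown for each exonic bin, per the file headers. The RNA-seq libraries were stranded, per the labels' protocols. The sample descriptions name DEXSeq. Per the submitters' processing notes, hg19, TopHat 1.1.4, Bowtie 1.0.0, Cuffdiff, Cufflinks and Trimmomatic are named, in roles that are not stated. The DEXSeq version, the scaling and what made a bin listed were not given in the sources used here. The table holds 1 value per comparison, so no error, test or replicate check was possible.

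The sign was turned, and model names were cut of their AceView ending. Bins past 0.5 (log2) were counted in each direction, beside the same over all bins. Adjoining bins have consecutive coordinates. Distances run from the bin's edge to the nearest listed m6A site, whose positions were taken to be counted from 1. The 6 models and the trafficking list were chosen with earlier results of these data known. Of 780 symbols in the models, 676 were current, 87 were older symbols with one current symbol, and 17 were used as written.

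Alternatives covered other sizes, bins of at least 20 bp, single-gene models, model medians, means, runs of adjoining bins and leaving out each model. Named bins were, in each model, the one with the largest change in any knockdown, those at 0.5 or more on one side in both KD1 and KD2, those at 1 or more in any knockdown, and those with a listed site. The remaining bins of models with up to 5 bins were also given. For likeness the 2 nearest bins were named, and for other trafficking models the 3 lowest and 3 highest by mean, with each model taken by the bin whose mean was farthest from 0. Counting was tested on a made-up table with known answers. Python 3.11.15, numpy 2.4.6, pandas 2.3.3 and matplotlib 3.10.9 were used.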

Additional observations from a re-analysis of the deposited data

How the results depend on the processing

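No paired analysis was possible because the table gives 1 value per comparison and bin, and for the same reason no library could be left out and depth limits could not be set. A count or median was taken as moved where it differed by over 1.5 times, and no median changed sign under any alternative run. For the 6 models 8, 13, 12 and 11 bins were past 0.5 in either direction in KD1, KD2, METTL3 and METTL14, and of 24 recounts 11 did not move by this rule, among them 18 bins in METTL3 at 0.25, at exactly 1.5 times. Those that did were, at 0.25, 15 bins in KD1 and 18 in METTL14; at 1, 1 (KD1), 6 (KD2), 5 (METTL3) and 5 (METTL14); in bins of at least 20 bp, 5 in KD1; by model median, 2, 4, 4 and 2 of the models in KD1, KD2, METTL3 and METTL14; and by runs of adjoining bins, an alternative chosen after seeing the data, 5 in KD1 and 7 in METTL3. No share over all models was counted by model median, here or for the other trafficking models, so nothing is read from those counts. The median change of the bins moved in 14 of 48 cases. The median over models was -0.19 (KD1), -0.65 (KD2), -0.27 (METTL3) and -0.39 (METTL14), and the mean over bins was -0.76 in KD2 and -0.37 in METTL14. Without M6PR the median was -0.15 in KD1, -0.22 in KD2 and -0.086 in METTL3, without DNM1 it was -0.17 in METTL3, and without AGAP3 it was -0.70 in KD2 and -0.85 in METTL14. By runs of adjoining bins it was -0.14 in KD1 and -0.044 in METTL3. For the other trafficking models, with 5, 36, 11 and 13 bins past 0.5, the counts were 23, 55, 41 and 38 at 0.25 in KD1, KD2, METTL3 and METTL14; 0, 5, 0 and 2 at 1; 0, 8, 1 and 5 by model median; and 3 in KD1 and 8 in METTL14 in single-gene models. In KD2 the count in single-gene models was 24, exactly 1.5 times fewer, and the other counts of these models differed by no more than that. A larger size can only keep or lower a count of bins, and the cause of the other moves was not tested.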
